A study of Mus musculus with 8 samples.

Results

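The cytosolic heat shock genes examined here were 10 of the 48709 genes listed in RNA-Seq of mouse pancreas. They were chosen by name and not by any measured value: *Hspa1a*, *Hspa1b*, *Hspa8*, *Hsph1*, *Dnajb1*, *Bag3*, *Hsp90aa1*, *Hsp90ab1*, *Hspb1*, and *Hsf1*, and all 10 were found in every library. Pancreata came from male mice, 8 weeks old, that were either WT or cKO. The cKO mice were *Pfkfb3* fl/fl; *Pdx1*-Cre, in which the driver acts in the pancreatic progenitor and therefore in acinar, ductal, and islet cells. The deletion of *Pfkfb3* is thus meant for the pancreas and not the whole animal. This gene encodes an enzyme that sets the level of a sugar phosphate activating glycolysis. Mice were given saline, or palmitoleic acid (POA) with ethanol, which form fatty acid ethyl esters in the body and cause severe acute pancreatitis (FAEE-SAP). Each of the 4 groups (WT saline, WT FAEE-SAP, cKO saline, and cKO FAEE-SAP) had 2 libraries, described as biological replicates, from tissue taken at 24 hours. The WT mice were purchased and not described as littermates of the cKO mice, so genotype and origin cannot be told apart. All mice were fasted beforehand, and buprenorphine is described for the FAEE-SAP mice alone, so its part cannot be told apart from that of POA and ethanol.

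Heat shock proteins are chaperones that hold or refold damaged proteins. HSP70 proteins (HSPA1A, HSPA1B, and the constitutive HSPA8) bind unfolded stretches, J-domain proteins such as DNAJB1 deliver clients to them, HSPH1 and BAG3 exchange their nucleotide, and HSP90 proteins mature kinases and receptors. The small heat shock protein HSPB1 holds unfolding proteins without using ATP and binds actin. HSF1, the transcription factor that induces this set under proteotoxic stress, is held inactive by chaperones and is regulated mainly as a protein, by trimer formation and phosphorylation. In pancreatitis, HSP70 and the small heat shock proteins have long been studied as protectors of acinar cells.

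The libraries held 22.8 to 37.6 M mapped reads, worked out from the low values of the deposited RPKM (read number divided by exon length and by library size). RPKM values of most genes were higher in the WT FAEE-SAP libraries, in which the summed level of 10 acinar markers, dominated by digestive enzymes, was low. The libraries were therefore scaled by the median of ratios, and the levels below are scaled RPKM over all 8 libraries, a per-length unit. Levels of different genes compare only roughly in it. Exonic length can exceed that of the longest coding transcript, as for *Hsf1* (7099 against 2104 bases), and several members share sequence with other genes. Log2 fold changes were fitted with scaling over the libraries of each comparison, so they can differ slightly from the ratio of the levels. A gene was called where limma gave a Benjamini-Hochberg adjusted p under 0.05 and the change was at least 2-fold. All 10 acinar markers were detected in every library. Their summed scaled RPKM was 197551 and 231350 with saline in WT and 62816 and 66068 with FAEE-SAP. In cKO it was 266280 and 278364 with saline, against 157947 and 173098 with FAEE-SAP. In bulk tissue, fewer cells of a type and less RNA per cell cannot be told apart.

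*Hspa8* and *Hsp90ab1*, the constitutive HSP70 and HSP90, made up most of the summed level of the 10 genes in all 8 libraries. Together they held 84.6% and 85.6% of it in WT saline, 53.2% and 56.4% in WT FAEE-SAP, 77.4% and 85.5% in cKO saline, and 78.8% and 79.8% in cKO FAEE-SAP. The sum itself was 178 and 194 in WT saline, against 254 and 331 in WT FAEE-SAP. It was 212 and 219 in cKO saline and 170 and 189 in cKO FAEE-SAP, so the groups did not overlap in either genotype but lay in opposite order. Without *Hspb1* the sum overlapped between WT saline (170 and 184) and WT FAEE-SAP (162 and 216), while in cKO it stayed lower with FAEE-SAP (156 and 168) than with saline (190 and 205).

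**Figure D1:**
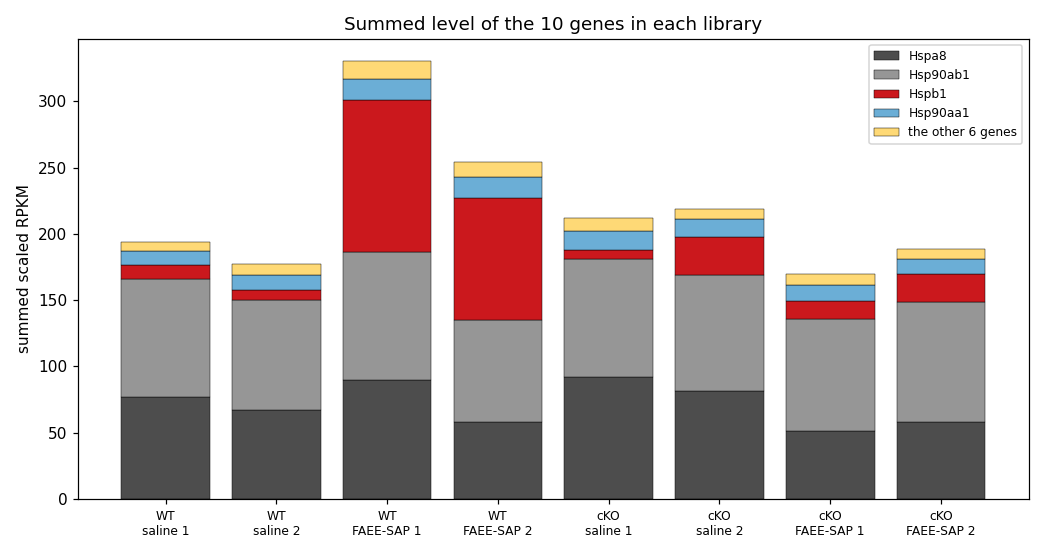
Summed scaled RPKM of the 10 heat shock genes in each of the 8 libraries, stacked by gene, with the 6 least abundant genes drawn together. *Hspb1* filled 34.7% and 36.2% of the bar in the WT FAEE-SAP libraries and 3.34% to 12.9% in the other 6.

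*Hspb1* had the largest change of the 10 genes with FAEE-SAP in WT, and not in cKO. Its scaled RPKM was 10.5 and 7.38 in WT saline, 115 and 92.0 in WT FAEE-SAP, 7.08 and 28.3 in cKO saline, and 13.8 and 20.8 in cKO FAEE-SAP. Both WT FAEE-SAP libraries stood above all 6 others by over 3-fold, and the remaining groups overlapped one another except WT saline and cKO FAEE-SAP. The group means were 8.92 ± 2.19 in WT saline, 103 ± 16.0 in WT FAEE-SAP, 17.7 ± 15.03 in cKO saline, and 17.3 ± 4.95 in cKO FAEE-SAP (SD, n = 2 each). In WT, *Hspb1* rose 11.5-fold with FAEE-SAP (log2 fold change 3.53, SE 0.23; limma, adjusted p = 0.00279), the 37th largest increase among 10894 genes tested. In cKO the log2 fold change was 0.28 (SE 0.68; limma, adjusted p = 0.909), and its 95% interval, -1.50 to 2.07, ended below the value in WT. The 2 genotypes were next set side by side under FAEE-SAP, where *Hspb1* was 6.09-fold lower in cKO (log2 fold change -2.61, SE 0.26; limma, adjusted p = 0.0188). That call was lost without either WT FAEE-SAP library (adjusted p = 0.110 without the first and 0.182 without the second, with 0 genes called at all), with all 8 libraries in 1 model (adjusted p = 0.0616), and without a filter on low values (adjusted p = 0.105). The test of the difference between the responses, the interaction of genotype and treatment, did not pass (log2 difference -3.28, SE 0.82; limma, adjusted p = 0.228).

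The cKO saline group was split for *Hspb1*, at 7.08 and 28.3, and the second library set the size of several values. Without it the response in cKO was 1.28 and the interaction -2.29, and without the first cKO saline library they were -0.71 and -4.28, all as log2. The cKO against WT difference with saline was 0.66 (SE 0.67), and -0.34 without the second cKO saline library. The early response gene *Junb*, a subunit of the transcription factor AP-1, was also higher in that library, at 3.89 against 1.84 in the first. With it, 9 of the 10 early response genes listed were higher there, 6 of them at least 2-fold. The second library was also the higher one for 10 of these 10 genes in WT FAEE-SAP (3 at least 2-fold), where *Hspb1* was the lower in it, and for 6 of 10 in WT saline and 7 of 10 in cKO FAEE-SAP. *Nr4a1* stood at 6.54 against 0.517, *Dusp1* at 3.52 against 0.775, and *Fos* at 1.57 against 0.181, examples chosen after their values were seen. Their part in the *Hspb1* values was not tested.

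The summed level of neutrophil markers, like *Hspb1*, was highest in the WT FAEE-SAP libraries. The summed scaled RPKM of 7 markers was 1.33 and 2.25 in WT saline, 58.6 and 53.1 in WT FAEE-SAP, 3.68 and 1.22 in cKO saline, and 19.8 and 12.3 in cKO FAEE-SAP. In cKO this sum was higher with FAEE-SAP without overlap, while the *Hspb1* groups overlapped. The sum is mostly *S100a8* and *S100a9*, with means of 17.2 and 31.2 in WT FAEE-SAP against 3.51 and 9.88 in cKO FAEE-SAP. *Cxcr2*, *Retnlg*, and *Ly6g* were also higher in WT FAEE-SAP than in cKO FAEE-SAP. *Csf3r* was near equal in these groups, at 0.847 and 0.808, and *Mpo* was at 0 and 0.128. *Ly6g* was at 0 in both saline groups. Acinar markers were at their lowest in the same WT FAEE-SAP libraries, as given above. With FAEE-SAP, the summed level of 7 ductal markers was 69.6 and 72.1 in WT, against 68.7 and 69.0 in cKO. Its members differed in direction, with mean scaled RPKM of 43.9 in WT and 35.1 in cKO for *Spp1*, 11.3 and 7.30 for *Krt19*, and 13.4 and 23.5 for *Muc1*. The part of neutrophil, acinar, and ductal cells in the *Hspb1* values was not tested.

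*Hspb1* lies on chromosome 5 (GRCm38.p6, bases 135887919 to 135889563, plus strand). Of its 100-base stretches 42.7% occur in *Hsp25-ps1* as well, which stood at 0 to 0.398 scaled RPKM. Heat shock factors bind inverted repeats of the unit nGAAn, and the bases before the start of *Hspb1* are shown because they hold 2 such pairs, the most upstream among the members searched. RefSeq's promoter table for GRCm38.p6 had an entry for 6 of the 10 members: *Hspb1*, *Hspa1a*, *Hspa1b*, *Hsph1*, *Dnajb1*, and *Bag3*. The 250 bases upstream of 2 of them follow, on the strand of the gene, with capitals marking each match to GAANNTTC or TTCNNGAA, which read the same on both strands. The first sequence is chr5:135887669-135887918 and the second is chr17:34972157-34972406, minus strand.
Hspb1: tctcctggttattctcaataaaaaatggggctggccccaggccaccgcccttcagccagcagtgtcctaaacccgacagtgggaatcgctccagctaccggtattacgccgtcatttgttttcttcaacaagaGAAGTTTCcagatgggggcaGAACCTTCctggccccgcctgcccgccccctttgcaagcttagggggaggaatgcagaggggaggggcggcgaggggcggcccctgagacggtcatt
Hspa1a: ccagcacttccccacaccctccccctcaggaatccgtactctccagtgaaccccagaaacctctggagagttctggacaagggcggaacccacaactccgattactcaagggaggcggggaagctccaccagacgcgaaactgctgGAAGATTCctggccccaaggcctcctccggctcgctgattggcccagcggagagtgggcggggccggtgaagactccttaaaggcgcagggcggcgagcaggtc

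The pairs before *Hspb1* were GAAGTTTC and GAACCTTC, whose first bases lay 117 and 97 bases before the start. *Hspa1a* and *Hspa1b* each held GAAGATTC at 104 bases, in upstream windows identical at 247 of 250 bases (98.8%). *Hsph1* held TTCTCGAA upstream, in both of its listed windows. It also held TTCTGGAAAGTTC, in which a GAANNTTC pair overlaps a TTCNNGAA pair to make 3 units, after the start. *Bag3* held GAAGTTTC 43 bases after its start. The 2 windows listed for *Dnajb1* held no match. Among 32851 promoters of the same table, 6.69% held GAANNTTC in the 250 bases upstream and 0.228% held it at least 2 times, while 12.8% held either pair there, 1.46% held at least 2 such pairs, and 15.1% held either within the 300 bases that include 50 after the start. The run of 3 units was found in 0.603%. These matches describe letters and not bound sites.

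The inducible HSP70 pair was expressed at a low level. *Hspa1a* (chromosome 17, 34969190 to 34972156) had scaled RPKM of 0.359 and 0.199 in WT saline, 0.820 and 0.410 in WT FAEE-SAP, 0.403 and 0.468 in cKO saline, and 0.513 and 0.771 in cKO FAEE-SAP. Its neighbor *Hspa1b* (34956436 to 34959238) had 0.363 and 0.512, 1.94 and 0.934, 0.822 and 0.444, and 0.729 and 0.958 in the same order. Both genes were higher in each WT FAEE-SAP library than in either WT saline library, whereas in cKO the groups overlapped for *Hspa1b* and separated for *Hspa1a*. Neither gene passed the test in WT (*Hspa1a* log2 fold change 0.92, SE 0.41, adjusted p = 0.216; *Hspa1b* 1.48, SE 0.39, adjusted p = 0.0763; limma) or in cKO (0.46 and 0.41). In WT both genes passed the filter on low values through the FAEE-SAP libraries alone, which favors a higher value there. The same held for *Hspa1a* in cKO. *Hspa1b* did pass in WT on RPKM as deposited (log2 fold change 2.64, adjusted p = 0.00233), at an unadjusted p, and with a replicate block in which the WT saline numbers were exchanged, an alternative added after the data were seen (adjusted p = 0.0440). Its value in cKO was 0.80 without the first cKO saline library and 0.054 without the second. Few reads stood behind these levels, about 13.9 to 113 for *Hspa1a* and 20.9 to 252 for *Hspa1b*. The pair also shares sequence: 47.1% of the 100-base stretches of the *Hspa1a* transcript occur in *Hspa1b*, so reads may have been split between them. Summed, they had a log2 fold change of 1.33 in WT (limma, adjusted p = 0.0816) and 0.46 in cKO (adjusted p = 0.591). As a share of *Hspa8*, the sum was 0.941% and 1.06% in WT saline and 1.33% and 1.12% in cKO saline. With FAEE-SAP it was 3.08% and 2.32% in WT, against 2.42% and 2.99% in cKO. That share was therefore higher in all 4 FAEE-SAP libraries than in all 4 saline libraries, a pattern noticed after the values were seen and not tested. In cKO the denominator was also lower with FAEE-SAP, with mean *Hspa8* of 54.6 against 86.7 with saline. In WT these means were 73.8 and 71.8.

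*Hspa8* (chromosome 9, 40800984 to 40810087), the constitutive HSP70, had scaled RPKM of 76.7 and 66.9 in WT saline, 89.7 and 57.8 in WT FAEE-SAP, 92.1 and 81.4 in cKO saline, and 51.3 and 57.8 in cKO FAEE-SAP. The WT FAEE-SAP libraries lay on either side of the WT saline pair, while both cKO FAEE-SAP libraries were below both cKO saline libraries. The log2 fold change was 0.00 in WT (SE 0.24) and -0.64 in cKO (SE 0.17; limma, adjusted p = 0.434), and the difference between them was -0.68 (SE 0.32, adjusted p = 0.441). The HSP110 gene *Hsph1* (chromosome 5, 149614287 to 149636376), a nucleotide exchange factor for HSP70, had scaled RPKM of 0.600 and 0.988, 1.11 and 0.782, 1.59 and 0.975, and 0.629 and 0.534 in the same order. Its order in cKO was that of *Hspa8*, with a log2 fold change of -0.94 (SE 0.29; limma, adjusted p = 0.453), and in WT the groups overlapped (0.24, SE 0.32, adjusted p = 0.678). *Hspa8* shares 63.4% of its 100-base stretches with other annotated genes, chiefly *Gm15459* and *Gm26825* at 58.5% each. *Gm15459* was listed at 0 in every library, and *Gm26825* stood at 0.0945 to 0.372 scaled RPKM.

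The J-domain gene *Dnajb1* (chromosome 8, 83608193 to 83612653) had scaled RPKM of 1.44 and 2.10 in WT saline, 2.62 and 3.56 in WT FAEE-SAP, 1.45 and 1.66 in cKO saline, and 1.34 and 1.72 in cKO FAEE-SAP. Its 2 WT FAEE-SAP libraries were the highest of the 8, and the other 3 groups overlapped. The log2 fold change was 0.78 in WT (SE 0.28; limma, adjusted p = 0.140) and -0.00 in cKO (SE 0.20), and with FAEE-SAP cKO differed from WT by -0.99 (SE 0.27, adjusted p = 0.150). *Bag3* (chromosome 7, 128523616 to 128546981), the HSP70 partner that links chaperones and small heat shock proteins to selective autophagy, had scaled RPKM of 2.08 and 2.29, 3.56 and 3.50, 2.75 and 1.63, and 3 and 2.47 in the same order. The WT FAEE-SAP pair was again the highest, and the cKO groups overlapped. Its log2 fold change was 0.67 in WT (SE 0.19; limma, adjusted p = 0.0937) and 0.37 in cKO (SE 0.30, adjusted p = 0.696). The value in cKO rested on the saline pair, being 0.74 without the first cKO saline library and 0.023 without the second.

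The HSP90 genes differed in level and in order. The inducible form *Hsp90aa1* (chromosome 12, 110690605 to 110702728) had scaled RPKM of 10.7 and 11.7 in WT saline, 15.7 and 15.3 in WT FAEE-SAP, 13.7 and 13.6 in cKO saline, and 12.1 and 11.1 in cKO FAEE-SAP. It was higher with FAEE-SAP in WT and lower in cKO, without overlap in either genotype, at log2 fold changes of 0.46 (SE 0.17; limma, adjusted p = 0.143) and -0.20 (SE 0.17, adjusted p = 0.711). The constitutive form *Hsp90ab1* (chromosome 17, 45567775 to 45573271) had 89.5 and 83.4, 96.7 and 77.4, 88.9 and 87.9, and 84.1 and 91.1 in the same order. The 4 groups overlapped, with means between 86.5 and 88.4. Its log2 fold change was -0.00 in WT (95% interval -0.43 to 0.42), 0.02 in cKO (-0.38 to 0.42), 0.01 for cKO against WT with FAEE-SAP (-0.45 to 0.46), and 0.01 with saline (-0.39 to 0.40). These intervals are those of a scaling that centers most genes at 0. Per length, *Hsp90aa1* stood at 11.9% and 14.05% of *Hsp90ab1* in WT saline, 16.3% and 19.8% in WT FAEE-SAP, 15.4% in both cKO saline libraries, and 14.4% and 12.2% in cKO FAEE-SAP. This ratio does not depend on the scaling of the libraries, and it lay in opposite order in WT and cKO, with no test made of it. Its size is approximate. Of the 100-base stretches of *Hsp90aa1*, 47.5% occur in other genes, chiefly *Gm12346*, against 0% for *Hsp90ab1*.

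*Hsf1* (chromosome 15, 76477422 to 76501913) had scaled RPKM of 1.89 and 2.07 in WT saline, 3.71 and 2.32 in WT FAEE-SAP, 2.79 and 2.47 in cKO saline, and 2.21 and 1.66 in cKO FAEE-SAP. It showed the order of *Hsp90aa1*, higher with FAEE-SAP in WT and lower in cKO, without overlap. The log2 fold changes were 0.54 (SE 0.28; limma, adjusted p = 0.267) and -0.40 (SE 0.22, adjusted p = 0.598), and the size in WT rested on the first WT FAEE-SAP library, being 0.25 without it.

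**Figure D2:**
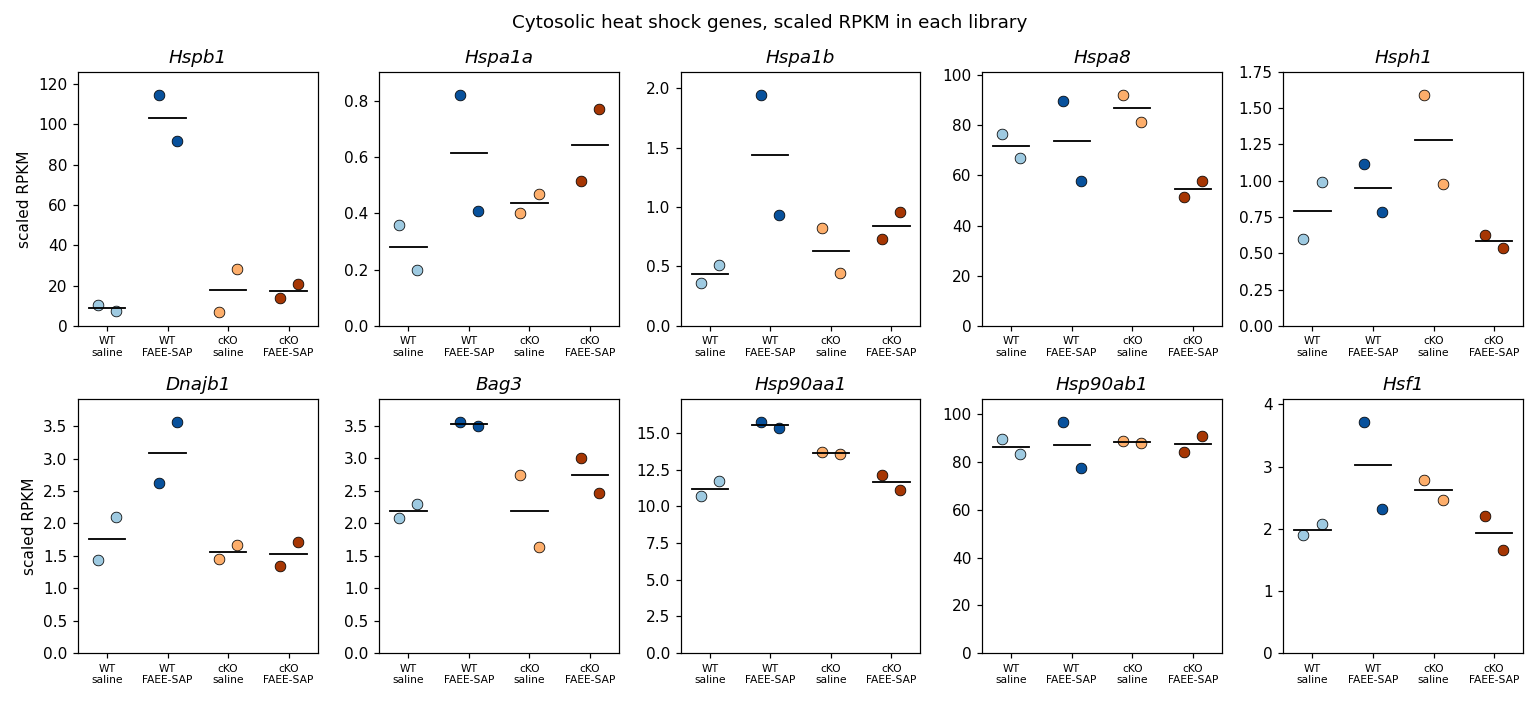
Scaled RPKM of each heat shock gene (linear axes from 0, different for each gene) in the 2 libraries of each group, with the group mean as a line. The WT FAEE-SAP libraries were the 2 highest for *Hspb1*, *Dnajb1*, *Bag3*, and *Hsp90aa1*, and the 4 groups of *Hsp90ab1* overlapped.

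Counted together, 1 of the 10 members was called in the WT response, *Hspb1*, against 6.93% of all genes tested (755 of 10894) in either direction and 3.08% higher. *Hspa1a* and *Hspa1b* passed the filter on low values through the FAEE-SAP libraries alone, so the filter favored a higher value there, and they are left out of the following count. In 5 of the other 8 both FAEE-SAP libraries lay above both saline libraries, against 29.3% of all genes tested. The exceptions were *Hspa8*, *Hsp90ab1*, and *Hsph1*. The median log2 fold change of those 8 was 0.50, beside 0.02 over all genes tested, of which some had also passed through 1 group.

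In the cKO response no member was called by limma, against 0.0531% of all genes tested (5 of 9423), and 2 members had an unadjusted p under 0.05, *Hspa8* and *Hsph1*. Over all genes, 9.42% were under that value. *Hspa1a* again passed the filter through the FAEE-SAP libraries alone and is left out. Of the other 9, libraries separated downward in 4 (*Hspa8*, *Hsph1*, *Hsp90aa1*, and *Hsf1*), against 21.4% of genes, and upward in 0, against 21.8%. The median log2 fold change of the 9 was -0.00. The difference between the WT and cKO responses was tested directly.

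In that interaction test no member was called by limma, against 0.0719% of genes (8 of 11133), and 4 members had an unadjusted p under 0.05 (*Hspb1*, *Hsp90aa1*, *Hsph1*, and *Hsf1*), against 12.6% of genes. The difference was below 0 for 10 of 10 members, against 48.8% of genes, with a median of -0.75. It ranged from -3.28 for *Hspb1*, through -1.23 for *Hsph1* (SE 0.46, adjusted p = 0.346), to -0.02 for *Hsp90ab1*. All members draw on the same libraries, so their signs are not separate evidence. *Hspa1a* reached the RPKM minimum in FAEE-SAP libraries alone, and *Hspa1b* otherwise only in the first cKO saline library. The count below 0 was 9 of 10 with the trimmed mean of log ratios and without 4 of the libraries left out in turn, the exception being *Hsp90ab1* or *Bag3*. With an RPKM minimum of 2 it was 6 of 7.

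**Figure D3:**
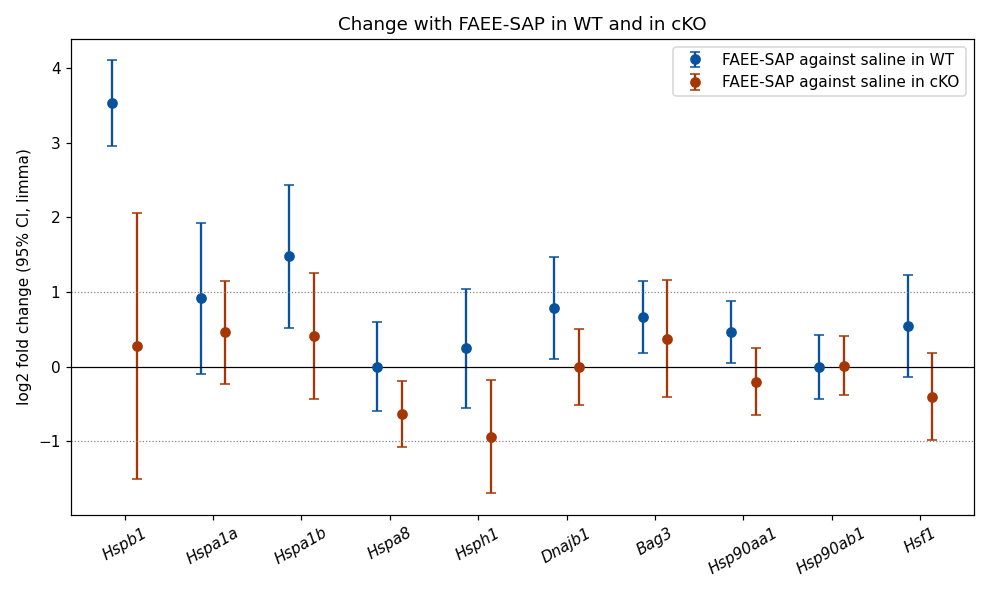
Response of each heat shock gene to FAEE-SAP (log2 fold change from saline) in the WT and the cKO libraries, from limma, with 95% confidence intervals and dotted lines at a 2-fold change. The WT interval of *Hspb1* lay above the 2-fold line, and the WT value was above the cKO value for 9 genes, with *Hsp90ab1* near 0 in both.

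With FAEE-SAP, cKO was compared with WT directly. Of the 10 members, 1 was called (*Hspb1*, lower), against 1.27% of all genes tested (140 of 11008) in either direction and 0.409% lower. Both cKO libraries were below both WT libraries for 7 of 10 members, against 25.7% of genes. *Hspa8* was separated only by the gap between 57.81 in cKO and 57.83 in WT. The exceptions were *Hspa1a* (log2 fold change 0.09, SE 0.39), *Hspa1b* (-0.66, SE 0.38), and *Hsp90ab1*. For *Hspa1b* the value was -0.18 without the first WT library and -1.17 without the second. The median over the members was -0.52. This comparison shares the WT FAEE-SAP libraries with the WT response, so its values are not separate evidence of their level.

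With saline, 8 of the 10 members passed the filter, since *Hspa1a* and *Hspa1b* did not reach the RPKM minimum in 2 libraries. None was called by limma, and 0 members had an unadjusted p under 0.05. The background was 0% called (0 of 8715) and 2.15% at an unadjusted p under 0.05 (187 genes). *Hspa8*, *Hsp90aa1*, and *Hsf1* were higher in both cKO saline libraries than in both WT saline libraries, that is 3 of 8 against 13.7% of genes, at log2 fold changes of 0.25, 0.26, and 0.36. The median of the 8 was 0.25.

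How far these genes appeared to move depended on the scaling. Left as deposited, the RPKM values had a median log2 fold change over the tested genes of 1.24 for the WT response and -0.91 for cKO against WT with FAEE-SAP. On that scale 10 of 10 members were called higher in WT, *Hsp90ab1* included (1.32), beside 7184 genes higher and 86 lower, and 8 of 10 were called lower in cKO with FAEE-SAP, beside 73 higher and 4354 lower. *Hspb1* in WT was 4.84 on that scale. The *Hspb1* interaction passed on that scale (log2 difference -3.95; limma, adjusted p = 0.0445) and at an unadjusted p, and under no other alternative run.

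**Figure D4:**
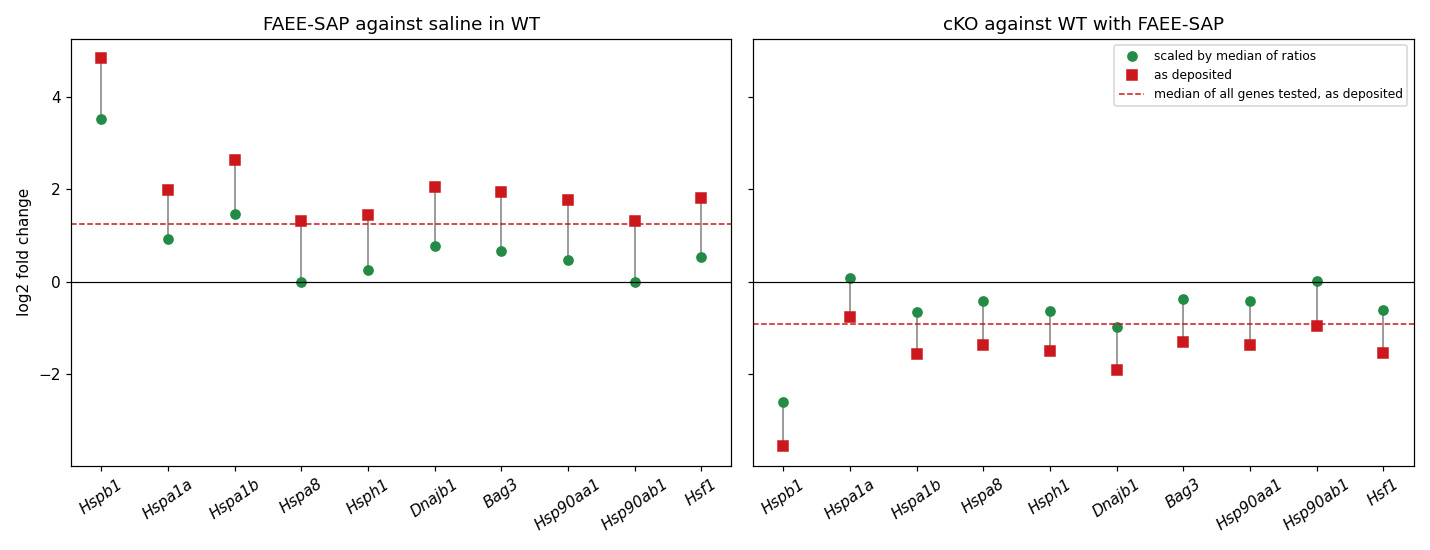
Log2 fold change of each heat shock gene in 2 comparisons, with libraries scaled by the median of ratios (circles) and on RPKM as deposited (squares). The dashed line is the median of all genes tested as deposited, 1.24 on the left and -0.91 on the right. All 10 squares lie above it on the left, and 9 of 10 lie below it on the right.

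Other chaperone genes were counted from lists. Of 21 listed HSP70 relatives and co-chaperones, 20 were in the files and up to 17 were tested. None was called by limma in any comparison, and in WT their log2 fold changes ranged from -0.64 to 0.52 with a median of 0.06. None of the 14 HSP90 co-chaperones was called either (WT range -0.74 to 0.50, median -0.04). The same held for the 8 subunits of TRiC, the cytosolic chaperonin that folds actin and tubulin (WT range -0.38 to 0.44). *Hspa14* was not analysed here. Of 4 small heat shock genes other than *Hspb1* that were tested in WT, 2 had a log2 fold change above 0 and 2 below 0. *Hspb7* was at 1.55 (SE 0.42; limma, adjusted p = 0.0792) and *Hspb8*, a partner of BAG3, at 1.34 (SE 0.30, adjusted p = 0.0529), both named after their values were seen. *Hspb7* passed the filter through the WT FAEE-SAP libraries alone, which favors a higher value there. *Hspb8* had scaled RPKM of 4.37 and 2.95 in WT saline and 7.51 and 11.4 in WT FAEE-SAP. *Cryab*, which encodes alpha-B crystallin, was called and fell. Its scaled RPKM was 5.23 and 5.31 in WT saline, 2.65 and 1.88 in WT FAEE-SAP, 4.90 and 4.85 in cKO saline, and 4.12 and 4.87 in cKO FAEE-SAP. The log2 fold change in WT was -1.22 (SE 0.23; limma, adjusted p = 0.0394), opposite in sign to that of *Hspb1*, and in cKO it was -0.09 (SE 0.17).

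Among 5 further heat-inducible genes, *Hmox1*, the heme oxygenase induced by heat and oxidants, rose in WT. Its scaled RPKM was 1.71 and 1.47 in WT saline, 6.21 and 8.08 in WT FAEE-SAP, 1.53 and 2.30 in cKO saline, and 5.77 and 6.25 in cKO FAEE-SAP. The log2 fold change in WT was 2.10 (SE 0.23; limma, adjusted p = 0.00878). It stood higher in all 4 FAEE-SAP libraries than in all 4 saline libraries, with a log2 fold change in cKO of 1.64 (SE 0.24; limma, adjusted p = 0.231) that did not pass. Among 9 early response genes tested, *Junb* rose in WT (log2 fold change 3.16, SE 0.23; limma, adjusted p = 0.00298) and was lower in cKO with FAEE-SAP (-2.02, SE 0.23, adjusted p = 0.0244). Its scaled RPKM was 1.68 and 2.001, 14.7 and 19.9, 1.84 and 3.89, and 4.17 and 4.19 in the group order used above, with both WT FAEE-SAP libraries above the other 6, as for *Hspb1*. No gene of the mitochondrial and ER list of 9 was called. *Hspa5*, the HSP70 of the ER, had 57.9 and 64.3 in WT saline, 115 and 421 in WT FAEE-SAP, 82.2 and 62.8 in cKO saline, and 53.1 and 65.8 in cKO FAEE-SAP. The second WT library with FAEE-SAP was the highest for *Hspa5*.

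Patterns over the 8 libraries were compared by Pearson's r as a description. The libraries share treatment and scaling, and no test was made. *Hspb1* was closest among members to *Dnajb1* (r = 0.77) and *Hsp90aa1* (0.74), and had r of 0.00 with *Hspa8*. *Hsf1* was closest to *Hsp90aa1* (0.84), and *Hspa8* to *Hsph1* (0.74). Over pairs of *Hspa1a*, *Hspa1b*, *Hsp90aa1*, *Hsph1*, and *Dnajb1*, r ranged from -0.19 (*Hspa1a* with *Hsph1*) to 0.70 (*Hspa1a* with *Hspa1b*). Their mean is therefore not a single shared pattern. Among 11123 other genes, those closest to the mean of *Hspa1a*, *Hspa1b*, *Hsp90aa1*, *Hsph1*, and *Dnajb1* were *Ifi205* (r = 0.98), *R3hdm4* (0.96), *Banf1* (0.95), *Rabggta* (0.95), and *Cxcl13* (0.95). For *Hspb1* alone they were *St14*, *Cldn7*, *Sat1*, *Pnp*, and *Rnaseh2a*, each at 0.98, a search added after the values were seen. *St14* encodes the epithelial serine protease matriptase and *Cldn7* a tight junction protein.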

How the data were processed

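RNA-Seq of pancreas was used from 8 libraries, 2 in each of 4 groups assigned by their labels. Per the study's methods, libraries were made with a directional kit, sequenced in pairs, filtered with fastp, and mapped to GRCm38.p6 with CLC Genomics Workbench. How reads were counted is not given in the sources used here. The authors deposited RPKM for 48709 genes in each library, with no read counts. Library totals of 22.8 to 37.6 M reads were worked out from RPKM and exonic lengths of GENCODE vM21 (46319 genes matched). Of values under 20 reads, 84.5% to 85.8% came out whole within 0.1, so reads per gene are approximate.

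Genes with RPKM of at least 0.5 in at least 2 libraries of a comparison were scaled by the median of ratios, put on the scale log2(scaled RPKM + 0.1), and fitted in limma 3.58.1 (R 4.3.3) with an intensity trend and Benjamini-Hochberg adjustment over all genes tested. Fold changes of low genes are understated on this scale. Calls needed an adjusted p under 0.05 and a 2-fold change. The fit was also run on simulated data with independent noise and changes planted only in genes above a low level. Those settings differ from these data, so the run gives no error rate for the calls reported here. All 10 members were named, and of other lists the genes called, with *Hspa5* added. Outside this rule, *Hspb7*, *Hspb8*, *Fkbp4*, *Fkbp5*, *Nr4a1*, *Dusp1*, *Fos*, the genes closest to *Hspb1* alone, single markers, and genes that share sequence with members were named after their values were seen. The members, lists, and tests were chosen with earlier results of these data known. Alternatives were other scalings, filters, pseudocounts, models, a replicate block, and leaving out each library in turn.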

Additional observations from a re-analysis of the deposited data

Results flagged for a closer look

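In 2 members the FAEE-SAP libraries moved in opposite directions in the 2 genotypes. *Hsp90aa1* was higher than saline in both WT FAEE-SAP libraries and lower in both cKO FAEE-SAP libraries, with a response in cKO minus the response in WT of -0.70 (log2). *Hsf1* showed the same, with -0.98. With 1 library left out in turn, the response in cKO was -0.25 to -0.069 for *Hsp90aa1* and -0.59 to -0.14 for *Hsf1*. The test of the difference itself, the interaction of genotype and treatment, did not pass for either gene (limma, adjusted p = 0.279 for *Hsp90aa1* and 0.348 for *Hsf1*). On RPKM as deposited the cKO responses were 0.42 and 0.19, above 0, so the opposite direction holds relative to most genes and not on that scale. Groups of 2 libraries were too small for a check of single outlying values.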

How the results depend on the processing

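Values here are log2 fold changes, or counts of genes called by limma among all genes, and the cause of a change was not tested. The rise of *Hspb1* in WT passed under all alternatives run, with log2 fold changes of 3.26 to 4.84 and adjusted p of 0.000190 to 0.0295. Calls of further members arose on RPKM as deposited, with unadjusted p, or with a crossed block. As deposited, 7270 genes and 10 members were called in WT, 15 genes in cKO, 4427 genes and 8 members for cKO against WT with FAEE-SAP, 2 genes with saline, and 791 genes and 3 members in the interaction. On that scale *Hsp90ab1* was 1.32 in WT. In cKO *Hsp90aa1* was 0.42, *Dnajb1* 0.57, and *Hsf1* 0.19. With FAEE-SAP *Hspa1a* was -0.77 and *Hsp90ab1* -0.95, and with saline *Hspa8* was -0.031, *Hsp90aa1* -0.018, and *Hsp90ab1* -0.27.

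Other scalings turned values near 0. With the trimmed mean of log ratios *Hsp90ab1* was 0.016 in WT, -0.014 with FAEE-SAP, and 0.021 in the interaction, and *Dnajb1* 0.0095 in cKO. With quantile normalization 80 genes were called with FAEE-SAP, 1 with saline, and 25 in the interaction. *Hsp90ab1* was 0.26 in WT, -0.18 with FAEE-SAP, and -0.12 with saline, and *Hspa1a* -0.024 with FAEE-SAP. With scaling over all 8 libraries *Hsp90ab1* was 0.0023 in WT and -0.014 in cKO, and with voom on the reads worked out *Dnajb1* was 0.0033 in cKO. Without a filter 259 genes were called in WT, and 0 in cKO, 0 genes and 0 members with FAEE-SAP, and 0 in the interaction, and *Hsp90ab1* was 0.063, -0.014, and -0.067 in the first 3. With an RPKM minimum of 2 the interaction called 35 genes, *Hspa8* was -0.042 in WT, and *Hsp90ab1* -0.033 with saline and 0.064 in the interaction. Pseudocounts of 1 and 0.01 gave 24 and 1 genes in the interaction. Without the trend 57 genes were called with FAEE-SAP and 3 in the interaction. With all 8 libraries in 1 model 15 were called in cKO, and with FAEE-SAP 299 genes and 0 members. At an unadjusted p the counts were 1349 genes and 2 members in WT, 280 in cKO, 924 with FAEE-SAP, 59 with saline, and 782 genes and 2 members in the interaction.

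With 1 library left out in turn, where the lone library is assumed to vary like the others, genes called ranged from 97 to 491 in WT, 0 to 6 in cKO, 0 to 139 with FAEE-SAP (0 to 1 members), and 0 to 4 in the interaction. In WT *Hsp90ab1* ranged from -0.12 to 0.20, *Hsph1* from -0.079 to 0.56, and *Hspa8* from -0.27 to 0.36. In cKO *Hspb1* ranged from -0.71 to 1.28 and *Dnajb1* from -0.10 to 0.17. With FAEE-SAP *Hspa1a* ranged from -0.36 to 0.51 and *Hsp90ab1* from -0.17 to 0.14. With saline *Hspb1* ranged from -0.34 to 1.65, *Bag3* from -0.42 to 0.28, *Dnajb1* from -0.46 to 0.096, and *Hsp90ab1* from -0.026 to 0.022. In the interaction *Bag3* ranged from -0.69 to 0.032 and *Hsp90ab1* from -0.17 to 0.14.

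Equal replicate numbers are not stated to mark shared mice or days. Deviations of same-numbered libraries correlated at -0.18 (WT), 0.45 (cKO), 0.31 (FAEE-SAP), and -0.39 (saline) across genes. With a replicate block 442 genes were called in WT, 52 in cKO, 568 with FAEE-SAP, and 0 in the interaction, and no call of a member changed. With WT saline numbers exchanged, an alternative added after the data were seen, 822 genes and 2 members (*Hspb1* and *Hspa1b*) were called in WT and 0 with saline. Depth limits *Hspa1a* and *Hspa1b* most, at 13.9 to 252 reads.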

Other observations

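A within-group pattern was noticed after the values were seen. *Hsph1* was higher in WT saline 2, WT FAEE-SAP 1, cKO saline 1, and cKO FAEE-SAP 1 than in the other library of the group. The same order in all 4 groups was found in 3 of the 9 other members (*Hsp90aa1*, *Bag3*, and *Hsf1*), against 15.5% of 11133 genes. The opposite order was found in 0 of 9, against 15.1%. The counts varied among the other lists, which hold few genes each, and no test was made of a difference between lists. The order of *Hsph1* was found in 7 of 14 HSP90 co-chaperones (2 opposite), 2 of 17 HSP70 relatives and co-chaperones (3 opposite), 0 of 8 TRiC subunits (2 opposite), 0 of 9 early response genes (3 opposite), 3 of 9 mitochondrial and ER relatives (0 opposite), 1 of 5 other heat-inducible genes (2 opposite), 0 of 4 other small heat shock genes (1 opposite), and 1 of 3 other heat shock factors and regulators (0 opposite). Among the co-chaperones that shared the order, *Fkbp4*, an immunophilin of steroid receptor complexes, had scaled RPKM of 11.1 and 17.3 in WT saline, 10.5 and 6.64 in WT FAEE-SAP, 20.9 and 11.02 in cKO saline, and 13.6 and 9.41 in cKO FAEE-SAP. *Fkbp5*, the glucocorticoid-induced immunophilin of the same complexes, had the opposite order, with 14.9 and 7.35, 6.83 and 21.6, 6.46 and 18.3, and 3.74 and 29.96. What set these libraries apart was not tested.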
